A study of Mus musculus with 4 samples.

Results

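The gene expression of mouse embryonic stem cells in which Ldha had been knocked out was compared with that of wild-type cells of the E14 line. The comparison rests on 1 RNA sequencing library of the knockout (Ldha_KO) and 1 of wild type (WT), out of 4 libraries in the series. The other libraries come from cells with the label SO, which the series text describes as treated with an inhibitor, and from an Ldhb knockout (Ldhb_KO); they are given here where they place a value. All 4 cultures carried the E14 background and were kept in medium with 15% serum and LIF on gelatin, without a feeder layer named in the labels, and the knockout carried no other allele or agent that the labels name. The sources used here do not give whether the knockout is a single clone, which part of Ldha was edited or on how many alleles. Every gene symbol with a level of at least 1 FPKM (fragments per kilobase of transcript, scaled to the depth of the library) in at least 1 of both libraries was taken, which kept 12653 of 25170 symbols.

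Lactate dehydrogenase is a tetramer that converts pyruvate and NADH to lactate and NAD, and the reaction lets glycolysis run on by giving back its NAD. The A subunit, encoded by Ldha, favours the formation of lactate, the B subunit, encoded by Ldhb, its use, and the C subunit, encoded by Ldhc, is the form of the testis. Embryonic stem cells in serum and LIF rely strongly on glycolysis, LIF sustains them through Stat3, and FGF4 acting through ERK moves them towards differentiation. A small share of such cells passes at any time through a state that resembles the embryo at the 2-cell stage, marked by Zscan4 and by transcripts of young retroviral copies.

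Differences are given as log2(FPKM + 1) of Ldha_KO minus that of WT, so that a positive value is higher in the knockout, and a gene is called higher or lower where the difference reaches 1 in size, which is 2-fold for genes at high levels and more than 2-fold for genes near the filter. With 1 library a side there is no replicate error, no test and no p-value, and every difference is between libraries and not between conditions. Of the 12653 genes kept, 348 were higher in Ldha_KO (2.75%) and 139 were lower (1.10%), and 9963 (78.7%) differed by less than 0.5. Higher genes thus made up 71.5% of those called. That split moves with the scale: the values summed to 477538 in Ldha_KO and 526316 in WT, and with Ldha_KO rescaled to the WT sum, which adds 0.14 to a gene at a high level and takes the median of all kept genes to 0.09, there were 489 higher and 98 lower, or 83.3% higher. Without rescaling that median was -0.04, and the group medians below are to be read against it. Counts of called members are likewise to be read against the 2.75% higher and 1.10% lower of all kept genes.

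By the low values, the worth of 1 read in Ldha_KO was 1.005 times that in WT, a ratio sought only near 1. With it 62.1% of low-value ratios matched ratios of whole reads, against 1.46% with the step moved by 5%. The step reflects the library size used for scaling, which may differ from the read depth. The depth itself is otherwise unknown; the steps between low values pointed to a median of 11700000 fragments over 55 genes, a rough figure at which 1 fragment on 1 kb would be worth 0.0855 FPKM. The same steps agreed between SO and WT to within 0.0169% (the width between the 10th and 90th percentiles, 352 genes), between Ldha_KO and Ldhb_KO to within 0.225%, and between Ldha_KO and WT to within 0.615%. By these widths WT and SO stood together and the knockouts stood apart from them, less tightly matched to each other. The median step ratios paired the libraries otherwise, at 1.005 for Ldha_KO over WT, 1.006 for SO over Ldhb_KO and 1.051 for Ldha_KO over SO. The labels name no batch, and the part these groupings have in the differences was not tested. Markers of embryonic stem cells summed to 2707 FPKM in Ldha_KO and 3192 FPKM in WT, with all 6 at 1 or more in both. Of 8 fibroblast and feeder markers, Dcn and Lum were listed at 0 in both libraries and the sum, nearly all of it Thy1, was 41.3 in Ldha_KO and 49.6 in WT. Markers of trophectoderm summed to 10.1 and 6.93, of primitive endoderm to 6.47 and 3.86, and of mesoderm to 2.22 and 2.14, in Ldha_KO and in WT, all small beside the sums for stem cells. The neuroectoderm markers summed to 116 in Ldha_KO and 160.4 in WT, almost wholly Tubb3. In bulk RNA, a change in the number of cells of a kind and a change in the RNA of each cell cannot be told apart.

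The sequence just before the Ldha start is shown because it holds, close together, the letters that several regulators of metabolic genes read: CACGTG, the E-box of Myc and related factors, and ACGTG, the core of the site read by the hypoxia-inducible factors, which every CACGTG also contains. From RefSeq on GRCm38.p6, chr7:46845644-46845803 on the plus strand, ending at the base before the start, with matches to either motif on either strand in capitals:
Ldha: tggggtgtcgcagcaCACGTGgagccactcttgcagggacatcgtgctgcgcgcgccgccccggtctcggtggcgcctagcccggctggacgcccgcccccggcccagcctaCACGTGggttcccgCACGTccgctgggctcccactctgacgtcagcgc
Among 32851 promoter windows of 250 bases before the start, 6.02% held CACGTG and 16.6% held ACGTG, and among the 10125 kept genes with a window 10.3% and 25.8% did. These matches describe the letters and not a bound factor.

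The targeted gene followed the label. Ldha was at 154 FPKM in Ldha_KO and at 1774 FPKM in WT, a difference of -3.52, the lowest of all 12653 genes, while it was at 1711 in SO and 2237 in Ldhb_KO. WT was thus 11.5-fold above the knockout, but a level of 154 is still that of a well-expressed gene. Reads of an edited transcript and reads shared with the many processed pseudogenes of Ldha would both count here, and their part was not tested.

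The other subunits were higher in the knockout. Ldhb was at 158 in Ldha_KO, 139 in SO, 5.74 in Ldhb_KO and 76.5 in WT, which makes Ldha_KO 2.06-fold higher than WT. Ldhc was at 4.60 in Ldha_KO, 2.58 in SO, 3.11 in Ldhb_KO and 1.24 in WT, a low transcript that was 3.70-fold higher in Ldha_KO than in WT. Added together, the transcripts of the 3 subunits came to 316 FPKM in Ldha_KO and 1852 FPKM in WT, and Ldhb per Ldha stood at 1.02 in Ldha_KO against 0.0431 in WT. Ldhc is the next protein-coding gene after Ldha on chromosome 7, and of the other 7 neighbours, 4 before and 3 after, none was called. Gtf2h1, a subunit of the transcription factor TFIIH on the near side, was at 64.9 in Ldha_KO and 73.6 in WT, and Tsg101, a subunit of the ESCRT machinery beyond Ldhc, was at 32.9 and 41.2. The lactate carriers lay close: Slc16a1 was at 81.4 in Ldha_KO and 85.5 in WT, Slc16a3 at 112 and 115, and their chaperone Bsg at 475 and 395.

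Most enzymes of central carbon metabolism differed little, and so did most kept genes. Of all kept genes 78.7% differed by less than 0.5, and 2.75% were higher and 1.10% lower. Of 21 glycolysis genes kept, 1 was higher and none lower, with a median difference of 0.18. That gene was Slc2a3, a high-affinity glucose transporter, at 646 in Ldha_KO and 303 in WT; it was also at 544 in SO and 663 in Ldhb_KO. Pfkfb3, which makes the activator of phosphofructokinase, was at 11.3 in Ldha_KO and 6.40 in WT, and Hk2, a hexokinase, at 30.3 and 48.7, both short of the call. The abundant enzymes Pkm (2100.5 in Ldha_KO, 2319 in WT) and Aldoa (1659 and 1738) were nearly level.

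Counts here stand beside the same 2.75% higher and 1.10% lower of all kept genes. Among 19 genes for the fate of pyruvate none was called, with a median of -0.09. Gpt2, which turns pyruvate to alanine in mitochondria, was at 10.8 in Ldha_KO and 18.0 in WT, and Mpc1, a subunit of the mitochondrial pyruvate carrier, at 3.60 and 2.14. Among 19 genes of NADH shuttles and NAD synthesis 1 was lower: Naprt, which makes NAD from nicotinic acid, at 3.85 in Ldha_KO and 9.03 in WT, a call lost on rescaling to the WT sum. The shuttle enzymes Gpd2 (33.7 in Ldha_KO, 52.3 in WT) and Got1 (97.6 and 148) did not reach it. None of 10 pentose phosphate genes, 17 genes of the TCA cycle or 43 of oxidative phosphorylation was called either, with medians of -0.24, -0.06 and -0.08; the signs of the medians for pyruvate fate, the TCA cycle and oxidative phosphorylation turn positive on rescaling to the WT sum.

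Some other enzymes of sugar metabolism were higher; they were picked after their values were seen and stand for no list. Fbp2, a fructose-bisphosphatase, was at 13.2 in Ldha_KO, 13.8 in SO, 3.59 in Ldhb_KO and 4.27 in WT. Pygl, a glycogen phosphorylase, was at 4.16, 4.93, 6.36 and 0.753, and the phosphoglucomutase Pgm1 at 76.1, 54.2, 101 and 28.5, in the same order. All 4 of Fbp2, Pygl, Pgm1 and the phosphoglycerate mutase Pgam2 (9.48 in Ldha_KO, 3.13 in WT) were above 2-fold, and so was Fbp1 at 1.78 and 0.366. Enzymes of the same routes that were not called include Pcx, the pyruvate carboxylase, at 14.9 in Ldha_KO and 13.7 in WT, Pck2, a mitochondrial phosphoenolpyruvate carboxykinase, at 7.34 and 8.21 and the glycogen synthase Gys1 at 16.9 and 14.1. Pck1 was below the filter.

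**Figure D1:**
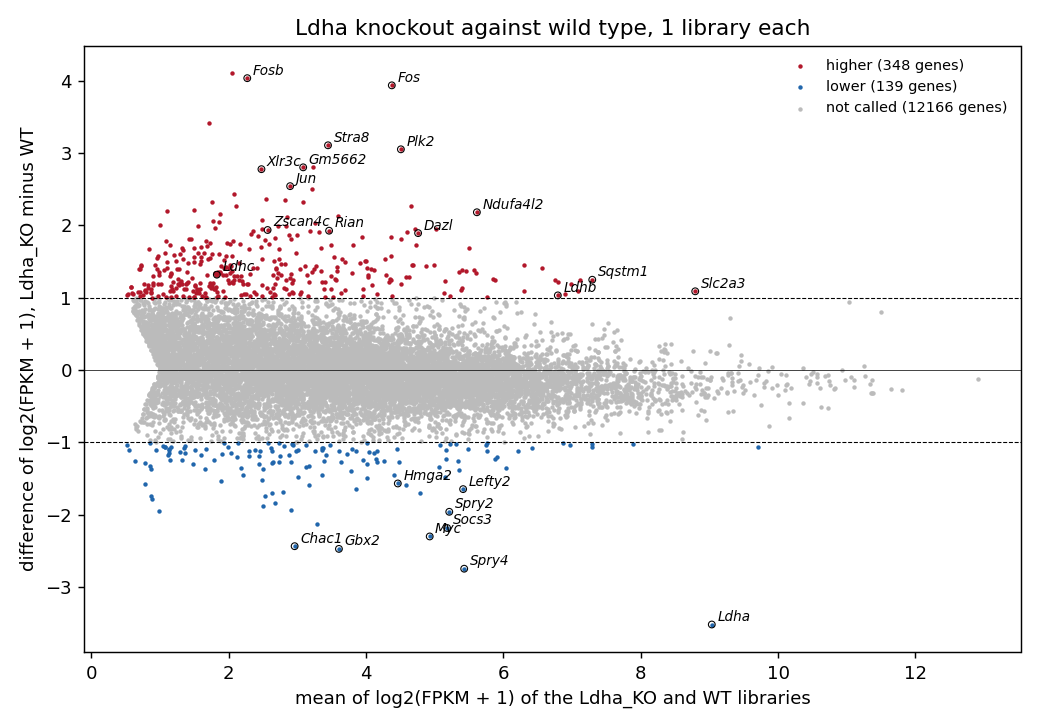
Difference of log2(FPKM + 1), Ldha_KO minus WT (vertical axis), against the mean of log2(FPKM + 1) in both libraries (horizontal axis) for the 12653 genes kept, each point 1 gene and the dashed lines at a difference of 1 and -1. The 348 higher genes lie mostly at low and middle levels, and Ldha stands alone at the bottom right with a difference of -3.52.

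Genes of the hypoxia response were higher as far as they were called, with 7 of 24 higher (against 2.75% of all kept genes), none lower and a median of 0.59. Ndufa4l2, which replaces a respiratory chain subunit in low oxygen, was at 103 in Ldha_KO and 22.0 in WT, and Cox4i2, a low-oxygen isoform of cytochrome oxidase, was at 13.2 and 2.57. The prolyl hydroxylases of collagen, P4ha1 (41.5 in Ldha_KO, 14.5 in WT) and P4ha2 (17.2 and 4.63), were higher too, as were the lysyl oxidase Loxl2, the carbonic anhydrase Car12 and the peptide hormone Adm. Among the glycolytic genes that the same factors can induce, Slc2a3 was called and Hk2 and Pkm were not, as given above. The regulators were not called, with Hif1a at 49.3 in Ldha_KO and 55.8 in WT and Epas1 at 7.84 and 15.0. In the other libraries Ndufa4l2 was at 95.2 in SO and 134 in Ldhb_KO, and P4ha2 at 24.0 and 20.9, so that WT was the low library for both. Of 17 kept members with a promoter window 13 held ACGTG, among them 2 of the 4 higher ones. Both are shown, with the 120 bases before the start on the plus strand and the matches in capitals, P4ha1 from chr10:59323176-59323295 and P4ha2 from chr11:54100804-54100923 (RefSeq, GRCm38.p6):
P4ha1: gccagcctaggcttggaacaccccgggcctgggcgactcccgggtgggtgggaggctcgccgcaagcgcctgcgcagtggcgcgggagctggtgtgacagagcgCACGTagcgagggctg
P4ha2: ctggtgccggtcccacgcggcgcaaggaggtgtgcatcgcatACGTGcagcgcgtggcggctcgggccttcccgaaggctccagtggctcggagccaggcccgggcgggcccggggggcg
Of the hypoxia genes that were not called, 11 of 13 held the same letters.

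Immediate early genes, which answer growth factors or stress within minutes without new protein, split in both directions. Of 18 kept, 5 were higher and 3 lower, against 2.75% and 1.10% of all kept genes. Of those kept 2 passed through Ldha_KO only. The higher ones were mainly AP-1 components. Fos was at 80.2 in Ldha_KO, 8.52 in SO, 8.70 in Ldhb_KO and 4.298 in WT, a ratio of 18.7 to WT. Fosb was at 18.5 in Ldha_KO, 0.423 in SO, 0.160 in Ldhb_KO and 0.190 in WT. Jun stood at 16.9, 3.63, 4.55 and 2.08 in the same order. Ldha_KO was the one high library for each of these, and the other 3 lay well below it. Atf3, a stress-induced partner of Jun, was at 14.1 in Ldha_KO and 2.47 in WT, and the MAP kinase phosphatase Dusp1 at 89.7 and 37.1; Jund was just short of the call at 89.6 and 46.0.

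The lower immediate early genes were Myc, Junb and Ier3. Myc, which drives growth and supports self-renewal under LIF, was at 12.7 in Ldha_KO, 40.5 in SO, 14.8 in Ldhb_KO and 66.5 in WT. Both knockouts thus lay far below WT for Myc. Junb, another AP-1 subunit, was at 14.2, 24.8, 58.8 and 48.4, and Ier3, a survival factor, at 7.44, 28.8, 61.9 and 21.2, in the same order. For these Ldha_KO was the low library and Ldhb_KO the high one. Egr1, a direct target of ERK and Srf, was at 47.6 in Ldha_KO and 68.1 in WT and was not called. In each case the data hold 1 culture harvested once, and the sources used here do not say how the cells were handled before lysis.

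Because the 4 higher genes Fos, Fosb, Atf3 and Dusp1 all held TGACG, the core of the site read by CREB and ATF factors, in the 250 bases before their start, these stretches are shown; 17.8% of all windows and 30.6% of kept genes with a window held the same letters on either strand, and so did 7 of 14 immediate early genes. Capitals mark TGACG or its reverse complement, in Dusp1 as part of the full TGACGTCA, which 1.55% of all windows and 3.05% of kept genes held. Positions on GRCm38.p6 (RefSeq) are chr12:85473770-85473889 on the plus strand for Fos, chr7:19310046-19310165 on the minus strand for Fosb, chr1:191183334-191183483 on the minus strand for Atf3 and chr17:26508473-26508622 on the minus strand for Dusp1:
Fos: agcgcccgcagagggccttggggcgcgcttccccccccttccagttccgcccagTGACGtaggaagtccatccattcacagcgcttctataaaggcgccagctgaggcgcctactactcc
Fosb: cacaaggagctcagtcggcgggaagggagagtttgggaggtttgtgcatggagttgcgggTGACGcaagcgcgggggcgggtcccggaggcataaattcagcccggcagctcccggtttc
Atf3: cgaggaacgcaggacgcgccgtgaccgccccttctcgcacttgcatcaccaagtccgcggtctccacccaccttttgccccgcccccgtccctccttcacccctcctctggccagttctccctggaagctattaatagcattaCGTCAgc
Dusp1: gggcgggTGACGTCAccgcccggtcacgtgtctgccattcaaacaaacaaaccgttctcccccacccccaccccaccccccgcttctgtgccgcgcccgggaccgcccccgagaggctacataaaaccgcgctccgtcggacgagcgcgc
Jun, which was also higher, held no TGACG in its window. The motif TGANTCA takes in the AP-1 site, TGACTCA or TGAGTCA, but is wider, because any middle base was counted. It was in 11.2% of the 277 higher genes with a window, in 3.88% of the 103 lower ones and in 5.23% of all kept ones. These were counts of 31, 4 and 530 genes, and 6.75% of all windows held it. The 31 count copies of 1 family apart, among them Zscan4c, Zscan4d and Zscan4f. Of the 14 immediate early genes 0 held the motif, and binding was not tested.

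Targets of Srf and Yap, factors that follow actin and cell tension, had 3 of 18 kept members higher (against 2.75% of all kept genes) and none lower (median 0.18). Ccn2 was at 54.1 in Ldha_KO and 10.5 in WT and Ccn1 at 24.7 and 6.72, both secreted matrix proteins and standard Yap targets, and Myl9, a myosin light chain, was at 6.96 and 2.90. Actb, the actin that Srf sustains, was level, at 1961 in Ldha_KO and 1959 in WT. Ccn2 in the other libraries was at 21.9 in SO and 9.68 in Ldhb_KO.

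Several feedback genes of FGF and ERK signalling were lower. Of 20 kept, 5 were lower, against 1.10% of all kept genes, and none higher, with a median of -0.47. Spry4, an inhibitor that ERK induces against its own pathway, was at 15.6 in Ldha_KO, 75.3 in SO, 80.0 in Ldhb_KO and 111 in WT, and its difference of -2.75 was the lowest after that of Ldha. Its relative Spry2 was at 17.8, 59.2, 33.4 and 72.1 in the same order. Fgf15, a ligand, was at 3.67 in Ldha_KO and 19.5 in WT, Fgf17 at 6.98 and 18.3, and Dusp6, the ERK phosphatase, at 22.6 and 47.4, a call that rescaling to the WT sum removes. The input to the pathway did not move alike, since Fgf4 was at 109 in Ldha_KO and 106 in WT and the receptor Fgfr1 at 26.1 and 26.0. Etv4 and Etv5, transcription factors downstream of ERK, were at 49.5 and 135 in Ldha_KO and at 78.2 and 165 in WT and were not called.

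Outputs of LIF and Stat3 showed the same mixture of a few low genes among level ones, with 2 of 18 lower (against 1.10% of all kept genes) and none higher. Socs3, the feedback inhibitor that Stat3 induces, was at 16.001 in Ldha_KO, 66.9 in SO, 125 in Ldhb_KO and 76.3 in WT, so that Ldha_KO alone was low. Gbx2, a homeobox gene that LIF and Stat3 induce in these cells, was at 4.16, 6.85, 11.1 and 27.7 in the same order, with WT alone high. Klf4, another Stat3 target, was at 193 in Ldha_KO and 124 in WT and lay on the higher side without being called, and the receptor Lifr was at 12.5 and 19.2.

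In the Nodal and activin list 3 of 19 kept members were lower, against 1.10% of all kept genes, and none higher (median -0.27). Lefty2 was at 23.1 in Ldha_KO and 74.4 in WT and Lefty1 at 8.63 and 26.0, both secreted inhibitors that Nodal signalling induces, and Inhbb, which encodes an activin subunit, was at 2.42 and 10.1. Nodal itself was at 65.0 in Ldha_KO and 49.3 in WT, on the other side and not called. All 3 of the lower genes were also below WT in SO and Ldhb_KO, with Lefty2 at 39.9 in SO and 21.1 in Ldhb_KO.

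The BMP list held 1 higher and 1 lower gene among 14, against 2.75% and 1.10% of all kept genes. Bmp4, the ligand, was at 20.3 in Ldha_KO, 54.7 in SO, 20.8 in Ldhb_KO and 58.1 in WT, low in both knockouts. Id2, an inhibitor of differentiation that BMP induces, was at 153 in Ldha_KO and 57.0 in WT, whereas Id1 (223 and 182) and Id3 (82.0 and 81.8) were not called. In the Wnt list 2 of 19 were lower, against 1.10% of all kept genes. These were the transcription factor Lef1 at 2.14 in Ldha_KO and 9.51 in WT and the secreted inhibitor Notum at 6.07 and 13.9. The call of Notum is lost on rescaling. Axin2, the common reporter of the pathway, was at 6.25 and 10.7 and was not called.

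**Figure D2:**
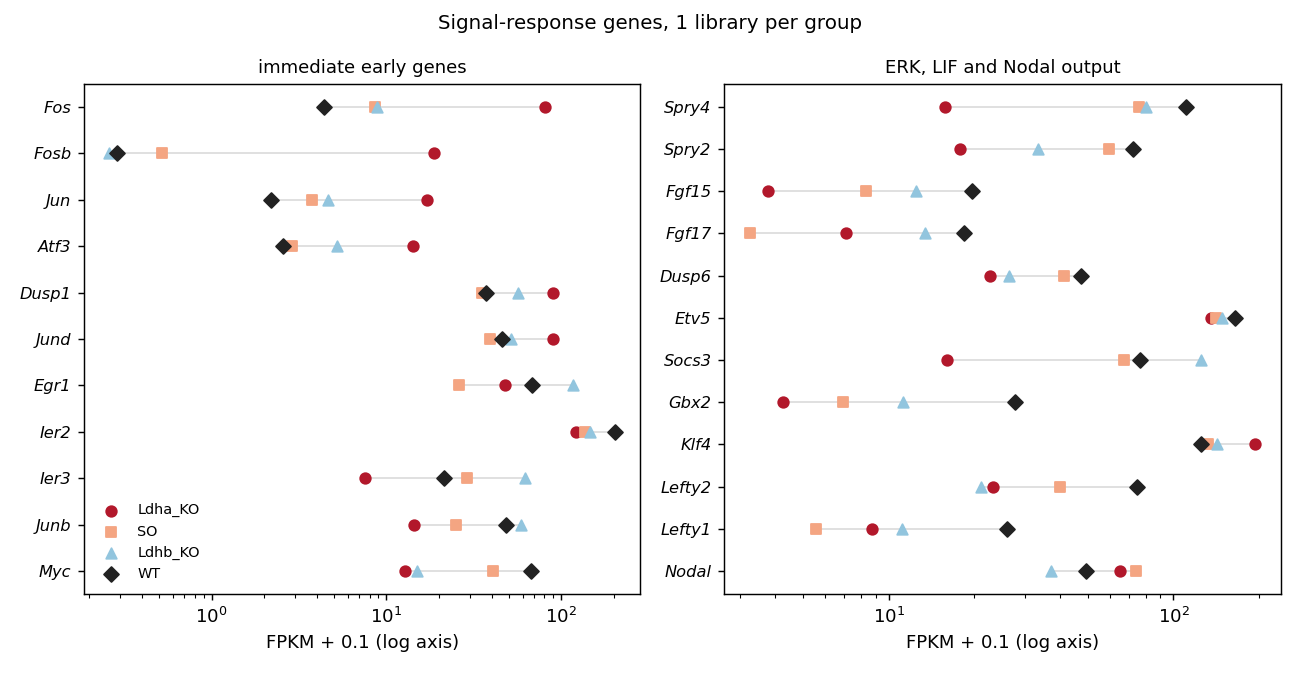
Level (FPKM + 0.1, log axis) of 11 immediate early genes and 12 genes of ERK, LIF and Nodal output in each of the 4 libraries, 1 point per library. For Fos, Fosb, Jun and Atf3 the Ldha_KO point lies to the right of the other 3, and for Spry4, Spry2, Socs3 and Gbx2 it lies to their left.

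Core pluripotency factors stayed at high levels. Of 29 naive and core genes kept none was higher and 2 were lower, against 2.75% and 1.10% of all kept genes, with a median of -0.35. Pou5f1 was at 972 in Ldha_KO and 1330.1 in WT, Nanog at 591 and 503. In Ldha_KO and WT the level of Esrrb was 219.9 and 239.9 and the level of Zfp42 526 and 624, none of them called. Sox2, at 204 in Ldha_KO, 344 in SO, 389 in Ldhb_KO and 371 in WT, had the lowest difference of these factors, -0.86, without reaching the call. The lower genes were Dppa3, a maternal factor that guards DNA methylation marks, at 0.952 in Ldha_KO and 4.03 in WT, and the RNA-binding protein Lin28a at 107 and 225, whose call is lost on rescaling to the WT sum.

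Genes of the formative and primed stages, through which stem cells pass on leaving the naive state, formed the list with the lowest median, -0.69, with 7 of 19 kept members lower and none higher, against 1.10% of all kept genes. Otx2, a driver of the formative state, was at 25.3 in Ldha_KO, 69.4 in SO, 28.4 in Ldhb_KO and 61.6 in WT. Pou3f1, which encodes Oct6, was at 3.20, 6.11, 4.66 and 8.09 in the same order. In SO Otx2 was near WT, while both knockouts were low. Grhl2, Lef1, Sox4 and Dusp6 were also among the lower members, and of these Sox4 and Dusp6 drop out on rescaling. Dnmt3b, the de novo DNA methyltransferase of this stage, was at 37.8 in Ldha_KO and 69.2 in WT and was not called.

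The 2-cell-like genes were the list with the highest median among kept members, 1.61, but the filter shaped it. Of 41 members found 17 were below 1 in both libraries, and 14 of the 24 kept passed through Ldha_KO only, so that the count of 18 higher and none lower (against 2.75% of all kept genes) describes the members that passed. Zscan4c, whose protein is linked to telomere upkeep, was at 10.6 in Ldha_KO, 16.9 in SO, 2.06 in Ldhb_KO and 2.03 in WT, and Zscan4d at 10.5, 14.5, 1.92 and 1.72. Gm5662, at 21.4 in Ldha_KO and 2.21 in WT, had the largest difference of the list. For these genes Ldha_KO and SO were the high libraries, and Ldhb_KO was close to WT. The deubiquitinase copies Usp17lb and Usp17le were at 8.83 and 6.71 in Ldha_KO and at 0.815 and 0.732 in WT. Dux, which switches the programme on, was at 0.254 in Ldha_KO and listed at 0 in WT, Zfp352 at 0.597 and 0.186, and all of these lay under the filter.

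Copies in these families may share reads, which would limit what a value per copy means. The transcripts were not compared, and whether reads were shared was not tested. Of the aligned bases before the starts of Zscan4c and Zscan4d 232 of 238 (97.5%) were the same, as the 120 bases nearest the start let one see. They are from chr7:11005625-11005744 on the plus strand and chr7:11166149-11166268 on the minus strand (RefSeq, GRCm38.p6), and no letter is capitalised because no motif is marked:
Zscan4c: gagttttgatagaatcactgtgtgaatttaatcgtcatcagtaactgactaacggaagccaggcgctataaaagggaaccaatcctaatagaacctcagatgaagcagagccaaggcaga
Zscan4d: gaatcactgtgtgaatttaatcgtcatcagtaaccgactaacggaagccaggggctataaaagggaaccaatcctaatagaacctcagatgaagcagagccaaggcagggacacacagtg
Summed over all 5 Zscan4 genes, a figure that depends less on how reads were divided between copies, the level was 33.1 FPKM in Ldha_KO and 5.86 FPKM in WT.

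Regulators of the 2-cell state, taken as a list of 30, held 1 called gene, Lin28a, named above. Trim28, which silences retroviral elements, was at 724 in Ldha_KO and 1015 in WT, and Kdm1a, a histone demethylase, at 122 and 124. None of the 23 members of Hdac1 complexes was called (median -0.24). Hdac1, a histone deacetylase, was at 42.0 in Ldha_KO, 49.4 in SO, 44.7 in Ldhb_KO and 56.1 in WT, and its partner Chd4 was at 92.1 in Ldha_KO and 129 in WT. Of 19 writers and erasers of acyl groups on lysine, which include the enzymes proposed for lactylation, none was called; Acss2, which makes acetyl-CoA from acetate, came closest at 12.2 in Ldha_KO and 6.23 in WT.

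Germline and meiosis genes were the second list by median. Of 38 found, 34 were kept, 17 were higher (against 2.75% of all kept genes) and none lower, and the median was 1.13; 6 of those kept passed through Ldha_KO only and 1 through WT only. Stra8, which starts meiosis on retinoic acid, was at 31.0 in Ldha_KO, 9.41 in SO, 14.8 in Ldhb_KO and 2.71 in WT. Dazl, a regulator of translation in germ cells, was at 51.1, 24.0, 16.5 and 13.03 and the surface protein Tex101 at 16.7, 9.53, 9.41 and 3.67, in the same order. Ldha_KO was the highest and WT the lowest library for all 3. Rec8, the meiotic cohesin, was at 14.4 in Ldha_KO and 4.86 in WT, Taf7l, a TFIID subunit of germ cells, at 19.5 and 5.19, and the ADP/ATP carrier Slc25a31 at 14.9 and 4.86. Other members of the same programme were nearly level: the synaptonemal protein Sycp1 was at 3.30 in Ldha_KO and 2.40 in WT, Dmc1, the meiotic recombinase, at 5.52 and 5.09, and Stag3 at 28.9 and 33.3.

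Many germline promoters carry the E-box CACGTG, which the silencing complex of Mga and Max reads in stem cells. Of 31 kept germline genes with a window 10 held it (32.3%), against 10.3% of all kept genes. Those 10 were 2 of the 17 higher ones, Taf7l and Slc25a31, and 8 of the 14 that were not called, among them Sycp1. The motif was thus in a larger share of the members that were not called. Examples from both kinds are shown as 120 bases before the start, with the motif in capitals. They are from chrX:134476491-134476610 on the minus strand, chr3:40708751-40708870 on the plus strand and chr3:102936101-102936220 on the minus strand (RefSeq, GRCm38.p6):
Taf7l: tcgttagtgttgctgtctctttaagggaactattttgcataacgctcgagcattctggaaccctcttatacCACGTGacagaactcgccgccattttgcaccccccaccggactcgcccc
Slc25a31: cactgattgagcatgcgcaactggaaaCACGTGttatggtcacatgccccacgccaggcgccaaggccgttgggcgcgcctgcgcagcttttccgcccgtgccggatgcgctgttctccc
Sycp1: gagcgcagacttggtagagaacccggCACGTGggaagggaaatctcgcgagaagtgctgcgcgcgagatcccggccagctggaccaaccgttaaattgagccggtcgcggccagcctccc
Max was at 72.8 in Ldha_KO and 102 in WT, Mga at 22.5 and 20.8 and E2f6 at 17.4 and 14.5, none of them called.

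The X chromosome stood out among the chromosomes for its higher genes. Of 478 kept X-linked genes 43 were higher (8.996%), against 303 of 12161 genes off the X (2.49%), and the autosomes ran from 1.25% to 4.34%. The bulk of the chromosome was not shifted, because genes with at least 5 FPKM in both libraries had a median difference of -0.06 on the X and between -0.15 and -0.05 on the autosomes. Germline genes were among the higher X-linked genes. All 10 Xlr genes, X-linked relatives of the meiotic gene Sycp3, were kept and 9 were higher, with a summed level of 67.3 FPKM in Ldha_KO and 14.2 FPKM in WT. Some passed the filter through Ldha_KO only, among them Xlr4a (0.801 FPKM in WT), Xlr4b (0.398), Xlr4c (0) and Xlr5a (0.642). Genes that passed in this way could be called higher but not lower, and this holds for the count of X-linked genes as well. Xlr3c was at 13.6 in Ldha_KO, 1.56 in SO, 3.53 in Ldhb_KO and 1.12 in WT and Xlr3b at 12.1, 3.93, 10.2 and 2.302. The promoters of this pair were alike in 226 of 230 aligned bases (98.3%). The transcripts were not compared, and whether reads were shared between the copies was not tested. Rhox5, a homeobox gene of the reproductive cluster, was at 76.1 in Ldha_KO and 29.4 in WT. Ctag2l1 (10.05 in Ldha_KO, 1.85 in WT), Nxf2 (3.44 and 0.594) and Mageb4 (3.38 and 1.14), relatives of human cancer-testis genes, were higher as well. By family, 3 of 7 kept Rhox genes, 2 of 4 Nxf genes and 1 of 11 kept Mage genes were higher. None was lower, and these counts stand against 2.75% higher and 1.10% lower of all kept genes. The Rhox genes summed to 136 FPKM in Ldha_KO and 56.3 FPKM in WT and the Mage genes to 155 and 132. The Nxf genes went the other way, at 94.5 and 103. The families were singled out after their values were seen. On chromosome 14 the balance was the reverse. Of 430 kept genes 6 were higher (1.40%) and 13 lower (3.02%), against 2.75% and 1.10% of all kept genes.

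**Figure D3:**
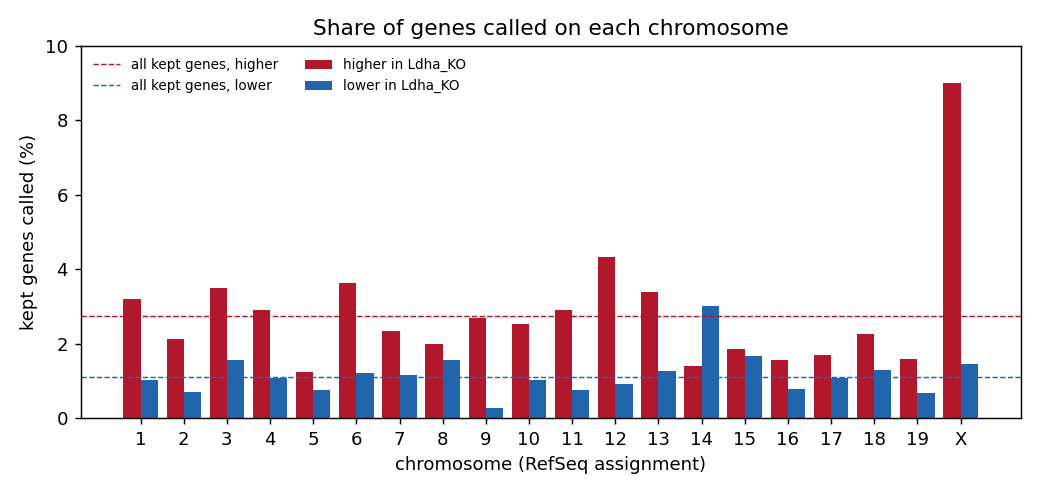
Share of kept genes on each chromosome that were higher (red) or lower (blue) in Ldha_KO, in percent, with the shares over all kept genes as dashed lines; chromosome Y, with 6 genes kept, is left out. The X bar for higher genes reaches 8.996%, and no autosome passes 4.34%.

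Imprinted genes, expressed from 1 parental allele, had 7 of 25 kept members higher, against 2.75% of all kept genes, and none lower (median 0.39). Of those kept 2 passed through Ldha_KO only and could not be called lower. Rian, a noncoding RNA of the Dlk1-Meg3 region on chromosome 12, was at 20.5 in Ldha_KO, 3.93 in SO, 20.6 in Ldhb_KO and 4.65 in WT, and Meg3, from the same region, at 12.8, 2.70, 14.03 and 3.51. Mest stood at 47.1, 10.3, 47.2 and 13.6 and the growth regulator Plagl1 at 4.93, 0.793, 3.61 and 0.713, in the same order. For these 4 both knockouts were high and both unedited libraries low, and so they were for H19, at 6.37, 1.57, 28.7 and 1.65. Sgce did not share this, at 6.73 in Ldha_KO, 5.51 in SO, 6.79 in Ldhb_KO and 1.24 in WT, where WT alone was low. Impact was at 114, 46.6, 67.0 and 52.96 in the same order, highest in Ldha_KO. By the widths of the low-value steps SO and WT also stood together, though the median step ratios paired the libraries otherwise. Rescaling to the WT sum adds at most 0.14 to any difference. Whether the first 5 of these genes follow a difference in processing or in another feature of the libraries was not tested. Snrpn was at 120.4 in Ldha_KO and 195 in WT, on the lower side and not called. In the DNA methylation list 1 of 18 was called, the stress gene Gadd45b, at 24.6 in Ldha_KO and 10.3 in WT; Dnmt3a (26.2 and 42.8) and Tet1 (26.6 and 40.3) were not.

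Targets of p53 were higher where they were called, with 8 of 29 higher (against 2.75% of all kept genes), none lower and a median of 0.44. Plk2, a kinase, was at 64.5 in Ldha_KO, 45.9 in SO, 15.4 in Ldhb_KO and 6.89 in WT. Cdkn1a, the inhibitor p21 of cyclin-dependent kinases, was at 129.6, 125, 84.4 and 46.6 in the same order, and Trp53inp1 at 79.8, 102, 43.4 and 24.1. WT was the lowest library for each. Ccng1 was at 171 in Ldha_KO and 81.8 in WT and Mdm2, the ligase that degrades p53, just missed the call at 81.1 and 41.9, while Trp53 itself was at 129.6 and 179.9 and the death effector Bax at 232 and 266.

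Beside p21, 2 other inhibitors of cyclin-dependent kinases were higher and 4 were not called. Cdkn2a, the locus of p16 and Arf, was at 41.3 in Ldha_KO, 20.1 in SO, 36.6 in Ldhb_KO and 14.4 in WT, and Cdkn2b at 5.69, 7.22, 3.88 and 1.25. These 3 were the higher genes among 43 of the cell cycle and DNA replication list, against 2.75% of all kept genes. On the lower side was 1 gene, against 1.10% of all kept genes, the S-phase activator E2f2, at 4.48 in Ldha_KO and 12.9 in WT. Ccne1 was at 112 in Ldha_KO and 208 in WT and Ccnd1 at 43.9 and 73.6, while the proliferation marker Mki67 was at 46.5 and 36.3, none of them called. The inhibitors that were not called were Cdkn1b at 25.1 in Ldha_KO and 22.3 in WT, Cdkn1c at 8.53 and 10.7, Cdkn2c at 1.62 and 1.15 and Cdkn2d at 14.4 and 18.9.

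The Myc network and ribosome biogenesis list had a median of -0.32. It had 2 of 30 lower and 1 higher, against 1.10% and 2.75% of all kept genes. Beside Myc, Mycn was lower at 29.8 in Ldha_KO and 64.5 in WT, although not after rescaling, and Mxd4, which competes with Myc for Max, was higher at 10.1 and 4.22. Npm1, a nucleolar protein and Myc target, was at 1407 in Ldha_KO and 2018 in WT and the spermidine synthase Srm at 153 and 279, neither called. Among 40 ribosomal protein genes, whose many pseudogenes can take their reads, Rps27 alone was called, at 9.56 in Ldha_KO and 3.84 in WT, and the median was -0.19.

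Each list of stress genes had 1 or 2 members called, to be read beside 2.75% of all kept genes higher and 1.10% lower. The oxidative stress genes under Nrf2 had 2 of 23 higher and none lower (median 0.27), Hmox1, the haem oxygenase, at 189.97 in Ldha_KO and 83.0 in WT and Gclc, a subunit of the enzyme that limits glutathione synthesis, at 61.1 and 27.3. Nqo1 was just short of the call at 87.8 and 45.5. Among 24 genes of mitophagy, lysosomes and autophagy Sqstm1, the cargo receptor p62, was the 1 higher gene, at 241 in Ldha_KO, 122 in SO, 158 in Ldhb_KO and 101 in WT. For the amino acid response under Atf4, 1 of 30 was lower: Chac1, which breaks down glutathione, at 2.34 in Ldha_KO, 4.07 in SO, 42.4 in Ldhb_KO and 17.1 in WT. Asns, the asparagine synthetase, was at 359 in Ldha_KO and 297 in WT, so that the list did not move with Chac1 (median 0.03). Of 29 genes of the unfolded protein response and chaperones Herpud1 was lower (10.4 in Ldha_KO, 22.0 in WT, lost on rescaling) and the chaperone Hspa5 was level at 357 and 337.

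Sterol and fatty acid synthesis had 1 of 31 members lower, the desaturase Scd2, at 86.5 in Ldha_KO, 84.7 in SO, 160.2 in Ldhb_KO and 179 in WT, a call lost on rescaling. The median was -0.30, with the fatty acid synthase Fasn at 44.1 in Ldha_KO and 79.9 in WT.

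In the lists of extra-embryonic lineages the genes called were all higher. The counts in this paragraph stand beside 2.75% of all kept genes higher and 1.10% lower. In the primitive endoderm list 2 kept members, Srgn among them, passed through Ldha_KO only and could not be called lower. So did 1 member each of the trophectoderm, mesoderm and neuroectoderm lists. The trophectoderm list had 2 of 14 higher, the keratin Krt19 at 20.4 in Ldha_KO, 32.2 in SO, 34.1 in Ldhb_KO and 6.38 in WT and the placental homeobox gene Esx1 at 9.9996 in Ldha_KO and 4.27 in WT; Eomes was at 6.77 and 4.84. In the primitive endoderm list 3 of 13 were higher, the collagens Col4a1 (17.1 in Ldha_KO, 6.67 in WT) and Col4a2 (6.15 and 1.89) and the proteoglycan Srgn (3.28 and 0.993). Hnf4a was at 2.78 in Ldha_KO and 1.53 in WT, and the marker sums given above set the scale. None of 7 mesoderm genes was called, and of 7 in neuroectoderm the Notch ligand Dll1 was higher, at 3.24 in Ldha_KO and 0.398 in WT, and Gbx2 lower.

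The counts that follow stand beside 2.75% of all kept genes higher and 1.10% lower. Through Ldha_KO only passed 3 kept members of the matrix list, 2 of the annexin and S100 list and 2 of the interferon list. Such genes could be called higher but not lower. In the interferon list 1 member passed through WT only. Matrix genes had 4 of 34 higher and none lower (median 0.23): both collagens, the protease inhibitor Serpine2 and the gelatinase Mmp2. Serpine2 was at 45.6 in Ldha_KO, 80.8 in SO, 32.3 in Ldhb_KO and 11.5 in WT. Mmp2 was at 14.4, 17.5, 21.0 and 6.12 in the same order. Annexins and S100 proteins, which bind calcium and membranes, had 5 of 15 higher and none lower (median 0.37). Anxa2 was at 64.2 in Ldha_KO, 73.2 in SO, 110 in Ldhb_KO and 24.5 in WT. S100a13 was at 9.22, 4.42, 4.58 and 1.82 and S100a1 at 12.998, 9.76, 8.56 and 2.98, in the same order. Of the members kept 10 had a difference above 0 and 5 below, among them S100a10 at 251.6 in Ldha_KO and 320.8 in WT. Of 25 genes of epithelial junctions none was called. The interferon and antigen presentation list was divided, with 4 of 20 higher and 2 lower. B2m, the light chain of class I molecules, was at 53.2 in Ldha_KO, 43.7 in SO, 55.3 in Ldhb_KO and 22.2 in WT. The peptide transporter Tap1 was at 3.27, 6.59, 5.15 and 0.965, and the chemokine Cxcl10 at 5.11, 2.29, 2.03 and 0.800, in the same order. WT was the lowest library for each of these, as for Serpine2, Mmp2, Anxa2, S100a13 and S100a1. On the lower side, the RNA sensor Ddx58 was at 11.4 in Ldha_KO, 15.8 in SO, 14.7 in Ldhb_KO and 28.7 in WT. Irf1 was at 8.82, 19.9, 9.90 and 20.3 in the same order, and its call was lost on rescaling to the WT sum.

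**Figure D4:**
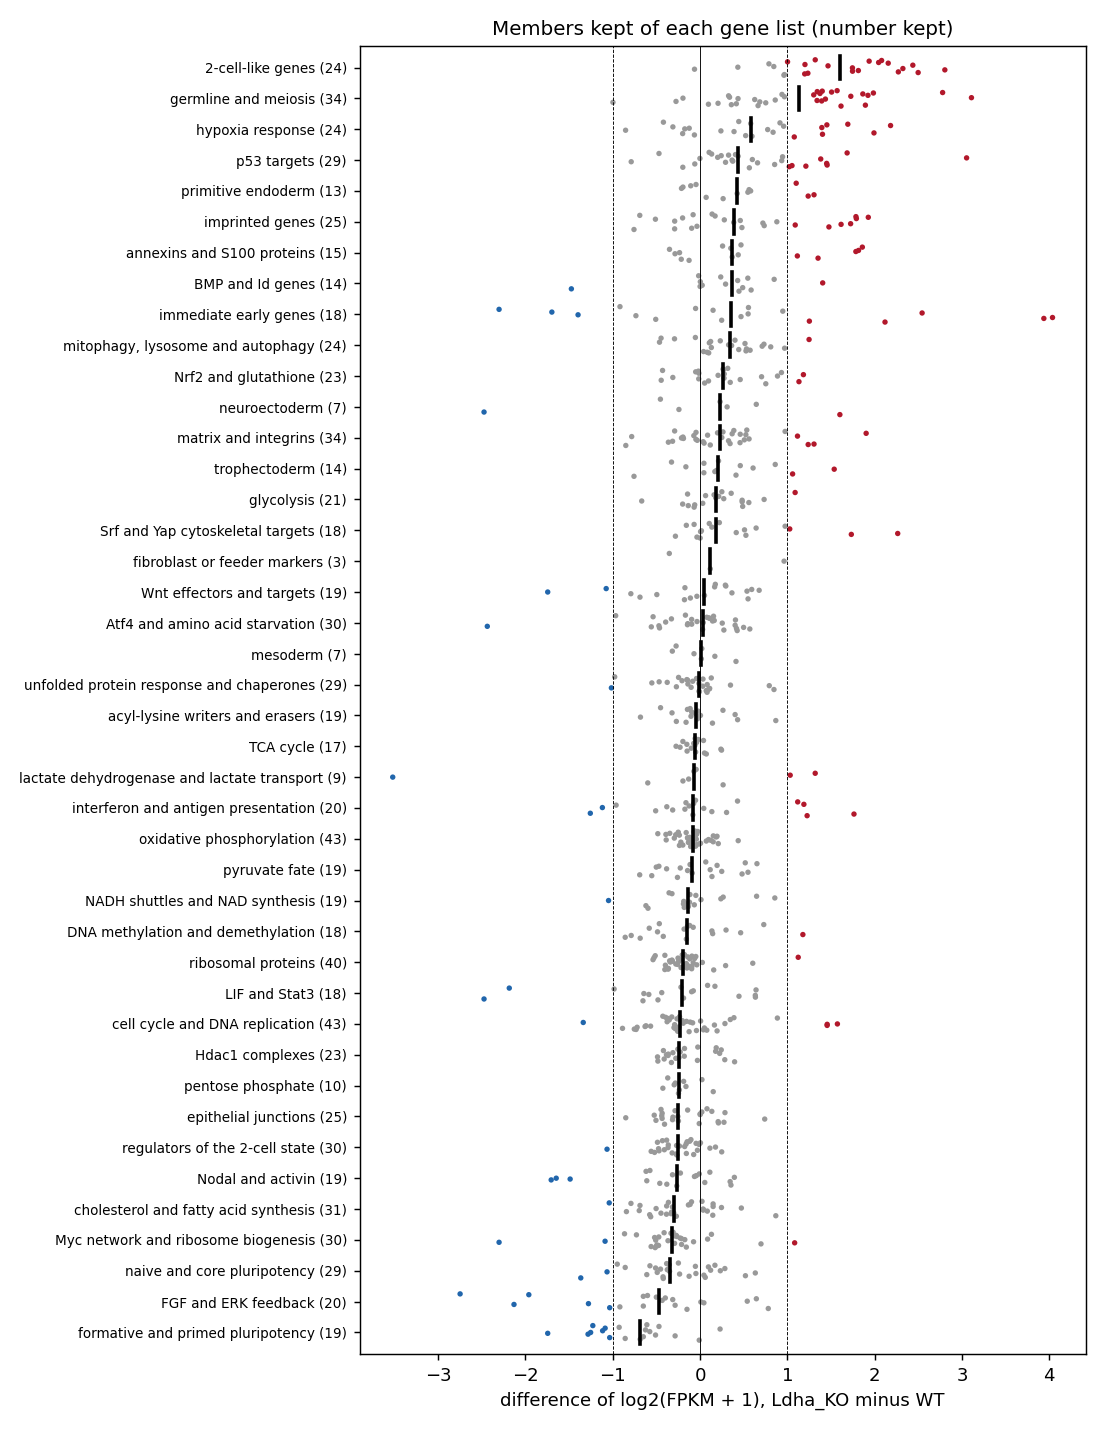
Difference of log2(FPKM + 1), Ldha_KO minus WT, for the kept members of each of 42 gene lists, each point 1 gene, the thick bar the median and the dashed lines at 1 and -1. The 2-cell-like list is at the top with a median of 1.61, and the formative and primed list at the bottom with a median of -0.69.

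Outside the lists 254 higher and 107 lower genes remained. By rank, with at least 5 FPKM in the higher library, the highest included Osr2, a zinc finger gene of mesenchyme, at 9.66 in Ldha_KO, 0.138 in SO, 0.145 in Ldhb_KO and listed at 0 in WT. Snora74a, a small nucleolar RNA, was at 16.2 in Ldha_KO, 27.5 in SO and listed at 0 in Ldhb_KO and WT; such short genes give a large FPKM for few fragments, and small nucleolar RNAs are as a rule not polyadenylated. Tex19.2, a germline and placental gene, was at 12.3 in Ldha_KO and 1.58 in WT and its neighbour Tex19.1 at 212 and 88.4. On the lower side Hmga2, an architectural chromatin protein, was at 11.8 in Ldha_KO and 37.0 in WT, Stmn3, which acts on microtubules, at 4.21 and 14.6, and Spink1, a trypsin inhibitor, at 1.95 and 9.84. Among 1024 genes at 100 FPKM or more in the higher library 13 were higher and 11 lower. The most abundant of those lower after Ldha was Trh, the thyrotropin-releasing hormone, at 577.1 in Ldha_KO, 1027 in SO, 752 in Ldhb_KO and 1206 in WT, followed by Tdh, the threonine dehydrogenase of stem cells, at 164, 236, 189 and 336. Both calls are lost on rescaling to the WT sum and after division by the median ratio, and these 2 genes were chosen after their values were seen.

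Calls were more frequent at low levels. Of 3346 genes with 1 to 5 FPKM in the higher library 5.17% were called, against 2.34% of those at 100 or more. The filter also favours whichever library is high: 701 genes passed through Ldha_KO only, of which 122 were higher, and 257 through WT only, of which 29 were lower. Genes that passed through Ldha_KO only could not be called lower, nor those through WT only higher, and this holds within every list.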

How the data were processed

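Polyadenylated RNA of 4 mouse embryonic stem cell cultures was sequenced, 1 library per group. The deposited tables give 1 value for each of 25170 gene symbols, read as FPKM made by the authors; the unit was judged from the values, and RPKM cannot be told apart from it. Per the submitters' processing notes, HTSeq 0.11.2, edgeR 3.26.8, SAMtools 1.9 and Bowtie2 2.3.4.3 were used with mouse build mm9; the sources used here do not give their roles or the gene annotation. From the values, log2(FPKM + 1) of Ldha_KO minus WT was computed over genes with at least 1 in either library (Python 3.11.15, numpy 2.4.6, pandas 2.3.3), after a check on simulated data, and a difference of 1 in size was called; it understates changes of low genes. With 1 library a side no test was made. Of 1008 listed symbols 1006 were found, 8 through a synonym. Members and lists were chosen with earlier results of these data known. Genes named by rule were the Ldh genes, Hdac1, 4 neighbours each side of Ldha, core pluripotency and Zscan4 genes, the 25 highest and lowest of those reaching 5 in either library and up to 6 per list by size of difference. Others, such as ligands, regulators and members set beside a called one as level, were chosen after their values were seen. Chromosomes, neighbours and promoters came from RefSeq on GRCm38.p6, another build than mm9, so no deposited position was used; 10125 kept genes had a promoter window. Alternatives varied the pseudocount, filter, scaling and call. The values of 1 gene are not reported here.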

Additional observations from a re-analysis of the deposited data

How the results depend on the processing

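No paired analysis was possible because each group has 1 library, and for the same reason no replicate could be left out. The difference of Ldha kept its direction and its call under all alternatives run. The 348 higher and 139 lower genes became 790 and 294 with a pseudocount of 0.1, 489 and 98 with Ldha_KO rescaled to the WT sum, 443 and 109 after division by the median ratio to WT, 210 and 104 with a filter of 5, and 86 and 21 with a call at 3-fold; without a filter they stayed 348 and 139. Of the 274 named genes with a value, 122 were called; 9 lost the call on rescaling (Naprt, Lin28a, Sox4, Dusp6, Notum, Mycn, Herpud1, Irf1 and Scd2), 8 of them also after division by the median ratio (Irf1 kept it), and 19 gained a call in some alternative. Of 42 list medians 32 kept their sign throughout. The median changed sign after division by the median ratio for TCA cycle (0.04), acyl-lysine writers and erasers (0.05), interferon and antigen presentation (0.01), lactate dehydrogenase and lactate transport (0.04), oxidative phosphorylation (0.01), pyruvate fate (0.0047) and unfolded protein response and chaperones (0.09). The median changed sign with a filter of 5 for Wnt effectors and targets (-0.14), fibroblast or feeder markers (-0.35) and neuroectoderm (-0.45). The median changed sign without a filter for interferon and antigen presentation (0.0002), lactate dehydrogenase and lactate transport (0.0043), neuroectoderm (-0.06) and pyruvate fate (0.04). The median changed sign on rescaling to the WT sum for TCA cycle (0.08), acyl-lysine writers and erasers (0.09), interferon and antigen presentation (0.05), lactate dehydrogenase and lactate transport (0.08), oxidative phosphorylation (0.06), pyruvate fate (0.05) and unfolded protein response and chaperones (0.13). The depth in fragments is known only roughly, so values near the filter may rest on few fragments.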
